A study of Mus musculus with 10 samples.

Results

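The Notch pathway genes described here are 36 named genes: 4 receptors, 5 ligands, 3 fringes, 4 gamma-secretase parts, 7 genes of the nuclear complex around RBPJ and MAML, 7 HES, HEY and NRARP genes, 4 deltex genes and 2 NUMB genes. They were chosen by name and not by their values, though with earlier results of these data known. All 36 are among the 16895 genes in the files. RNA was sequenced from 10 mouse tumors. Chicken DF1 fibroblasts carrying an avian RCAS retrovirus were injected under the arachnoid of newborn mice that were Cdkn2a null and expressed tv-a, the receptor for that virus, from the Nestin promoter. The virus held NLS-2SA-YAP1, a constitutively active YAP1 per the series title (n = 3), or the fusion YAP1-MAML2-v2 (n = 7). Every group shares the Cdkn2a loss and the Nestin/tv-a background, the age at collection is not stated, and no normal tissue is in the series. NLS-2SA-YAP1 replicate 1 and YAP1-MAML2-v2 replicates 2 and 6 are labelled extra axial (n = 3). NLS-2SA-YAP1 replicates 2 and 3 and YAP1-MAML2-v2 replicates 1, 3, 4 and 5 are labelled extra cranial (n = 6), and the label of YAP1-MAML2-v2 replicate 7 is intra ventricular (n = 1). The labels do not say that each library came from its own animal, and the deposited names of YAP1-MAML2-v2 replicates 6 and 7 share a number of unstated meaning, so p-values measure the spread between these samples.

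Notch receptors sit in the membrane and are cut when a Delta or Jagged ligand on a neighbouring cell pulls on them. ADAM proteases make the outer cut and gamma-secretase, a membrane complex, makes the inner one, which frees the intracellular domain to enter the nucleus. There it joins the DNA-binding protein RBPJ and a Mastermind-like coactivator (MAML), which recruits the acetyltransferases CREBBP and EP300, and HES and HEY repressors are transcribed. Without the intracellular domain RBPJ holds corepressors such as SPEN. In the YAP1-MAML2 fusion the YAP1 part is joined to the MAML2 part, so that the MAML2 gene is both a pathway member and a piece of 1 of the constructs.

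Library totals of the deposited values lay between 28001143 and 44544314. Levels are given as CPM, the deposited value relative to the TMM-scaled library total, and fold changes come from edgeR's quasi-likelihood test over 13707 genes with construct and region as terms. On the log2 scale, a construct fold takes NLS-2SA-YAP1 less YAP1-MAML2-v2, and a region fold takes extra axial less extra cranial. Means, ranges and permutation tests take the libraries without regard to region. Construct folds are adjusted for region, and the region term fits the intra ventricular library exactly. A fold and its means can thus differ in sign, as for MFNG, whose fold was 0.11 with the lower mean in NLS-2SA-YAP1. YAP1, which both constructs carry, had 512.8 ± 86.6 CPM in NLS-2SA-YAP1 tumors (SD, n = 3) and 147.7 ± 16.2 CPM in YAP1-MAML2-v2 tumors (SD, n = 7), a log2 fold change of 1.75 (SE 0.27, edgeR adjusted p = 0.0898). DESeq2 and limma-voom both called it, with adjusted p-values of 1.01e-09 and 0.0197. Every NLS-2SA-YAP1 library, at 420.5 CPM or more, was above every YAP1-MAML2-v2 library, at 173.5 CPM or less (exact permutation p = 0.0167). The sources used here do not say whether reads of the constructs were counted into YAP1. Reads of the constructs and of the mouse gene therefore cannot be told apart. The cell type label reads DF1, which names the injected producer cells. The meningeal marker list (10 genes) summed to 6457 to 11100 CPM in NLS-2SA-YAP1 tumors, while YAP1-MAML2-v2 tumors ran from 3251 to 10470 CPM. Single genes can carry this sum, since COL1A1 reached 8843 CPM and PTGDS 8542 CPM. PTGDS, CRABP2 and SLC6A13 each had 0 or 1 deposited in 1 library, so the sum does not show the whole list in every tumor. The intra ventricular library stood apart: astrocyte markers (6 genes) summed to 2147 CPM there against 48.7 to 184.7 CPM elsewhere, and macrophage markers (6 genes in the files) to 1811 CPM against 277.8 to 936.3 CPM. Its choroid and ependyma list (6 genes) summed to 34.8 CPM, against 0.0989 to 20.9 CPM elsewhere. Within that list FOLR1 reached 30.8 CPM and RSPH1 3.92 CPM. FOXJ1 and TTR reached 1.92 and 1.25 CPM, and KCNJ13 and PIFO were at 0 or 1 in every library. Skeletal muscle markers (9 genes) summed to 110.3 and 400.0 CPM across NLS-2SA-YAP1 replicates 2 and 3 and to 92.6 CPM in YAP1-MAML2-v2 replicate 3, against 2.14 to 10.8 CPM in the other libraries. In these whole-tumor libraries, fewer cells of a type and less RNA per cell cannot be told apart.

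The promoters of MAML2 and NCSTN are shown because they are the 2 members with every NLS-2SA-YAP1 library below every YAP1-MAML2-v2 library, and those of the pathway targets HEY2 and HES5 for comparison. The sequences are RefSeq promoters of mouse build GRCm38.p6, running from 250 bases before to 50 bases after the start. Positions count from the start as +1 with no 0. Capitals mark TGGGAA, the core bound by RBPJ, on either strand (TTCCCA on the other). MAML2 has a start at chr9:13297708-13298007 on the plus strand without the core, and a start at chr9:13662210-13662509, also on the plus strand, with 1 match that begins at position -145. NCSTN lies at chr1:172082700-172082999 on the minus strand, without the core. HEY2, at chr10:30842734-30843033 on the minus strand, holds 2 matches, at positions -207 and -3, and HES5, at chr4:154960673-154960972 on the plus strand, holds 2 matches at positions -226 and -82.
MAML2 first start: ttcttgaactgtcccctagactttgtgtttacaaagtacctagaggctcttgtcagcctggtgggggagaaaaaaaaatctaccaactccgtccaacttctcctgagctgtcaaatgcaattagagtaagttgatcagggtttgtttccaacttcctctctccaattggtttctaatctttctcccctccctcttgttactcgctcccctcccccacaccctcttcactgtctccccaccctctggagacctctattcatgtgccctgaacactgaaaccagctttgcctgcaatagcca
MAML2 second start: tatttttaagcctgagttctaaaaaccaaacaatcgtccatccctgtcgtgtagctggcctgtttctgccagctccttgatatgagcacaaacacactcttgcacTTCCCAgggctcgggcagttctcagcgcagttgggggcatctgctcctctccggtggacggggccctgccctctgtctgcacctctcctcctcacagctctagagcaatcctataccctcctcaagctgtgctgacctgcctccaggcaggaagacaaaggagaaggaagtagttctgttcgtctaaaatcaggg
NCSTN: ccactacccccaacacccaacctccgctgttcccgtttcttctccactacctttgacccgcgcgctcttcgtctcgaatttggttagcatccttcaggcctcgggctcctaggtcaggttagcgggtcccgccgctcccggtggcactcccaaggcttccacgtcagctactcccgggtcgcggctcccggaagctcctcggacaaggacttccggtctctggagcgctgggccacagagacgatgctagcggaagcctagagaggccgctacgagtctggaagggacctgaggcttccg
HEY2: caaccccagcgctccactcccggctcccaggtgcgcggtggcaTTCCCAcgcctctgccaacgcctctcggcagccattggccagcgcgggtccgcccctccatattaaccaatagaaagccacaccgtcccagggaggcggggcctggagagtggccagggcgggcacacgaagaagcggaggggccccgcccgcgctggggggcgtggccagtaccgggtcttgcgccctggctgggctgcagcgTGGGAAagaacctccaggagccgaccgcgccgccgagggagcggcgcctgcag
HES5: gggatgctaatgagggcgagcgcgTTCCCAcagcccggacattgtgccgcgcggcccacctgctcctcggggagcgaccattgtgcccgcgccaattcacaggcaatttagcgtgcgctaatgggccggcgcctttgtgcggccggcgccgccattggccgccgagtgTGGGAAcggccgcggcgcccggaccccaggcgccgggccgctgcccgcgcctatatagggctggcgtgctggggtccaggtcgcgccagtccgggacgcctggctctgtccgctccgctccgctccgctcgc
A promoter was matched for 30 members (38 entries), and 11 of the 30 held the core in at least 1 entry. Counted by entry, 12 of 38 (31.6%) held it, and among all 32851 RefSeq promoters of this length 25.6% did, and 3.79% held at least 2 copies. LFNG and RBPJ were the other members with 2 copies in an entry. Among the other pathway targets, the entries of HES6 and NRARP held no core, and HES1, HEY1 and HEYL had no matched promoter. HEY2 and HES5 therefore do not stand for the targets as a group. A match describes the letters in this window and not a bound site.

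The nuclear coactivator MAML2 was the member with the smallest p between constructs. It had 9.79, 20.8 and 18.7 CPM across NLS-2SA-YAP1 replicates 1 to 3, and in YAP1-MAML2-v2 tumors its lowest, median and highest values were 30.6, 45.2 and 128.0 CPM. Every NLS-2SA-YAP1 library lay below every YAP1-MAML2-v2 library. The means were 16.4 ± 5.83 CPM for NLS-2SA-YAP1 (SD, n = 3) and 56.3 ± 32.8 CPM for YAP1-MAML2-v2 (SD, n = 7), with a log2 fold change of -1.77 (SE 0.48, edgeR adjusted p = 0.247). The exact permutation test over the libraries gave a two-sided p of 0.0167, the smallest that 120 regroupings allow. Full separation of the groups fixes this value, so it adds nothing to the separation itself. DESeq2, run as an alternative, called it with an adjusted p of 0.0194, and the adjusted p ran from 0.0194 to 0.564 over 25 settings. The fold was -1.28 (edgeR adjusted p = 0.539) without NLS-2SA-YAP1 replicate 1, -1.36 (edgeR adjusted p = 0.188) without YAP1-MAML2-v2 replicate 2, which held the highest value, and -1.29 (edgeR adjusted p = 0.377) among extra cranial libraries alone. The sources used here do not say whether reads of the construct were counted into MAML2, so reads of the fusion and of the mouse gene cannot be told apart. Mouse Maml2 lies at chr9:13297957-13709388 on the plus strand of mm10.

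Its relatives MAML1 and MAML3 serve the same complex and are not in either construct. MAML3 had 6.20, 14.1 and 8.75 CPM across NLS-2SA-YAP1 replicates 1 to 3, and 12.1, 23.8 and 53.0 CPM as lowest, median and highest in YAP1-MAML2-v2 tumors. The groups overlapped in 1 pair of libraries, NLS-2SA-YAP1 replicate 2 and YAP1-MAML2-v2 replicate 1. The means were 9.69 ± 4.04 CPM for NLS-2SA-YAP1 (SD, n = 3) and 26.2 ± 13.3 CPM for YAP1-MAML2-v2 (SD, n = 7), with a log2 fold change of -1.44 (SE 0.48, edgeR adjusted p = 0.293; exact permutation p = 0.0333). MAML1 had 36, 63.8 and 48.1 CPM across NLS-2SA-YAP1 replicates 1 to 3, and 13.1, 64.4 and 83.0 CPM as lowest, median and highest in YAP1-MAML2-v2 tumors, so its groups overlapped widely (a log2 fold change of -0.45, SE 0.28, edgeR adjusted p = 0.542). The YAP1-MAML2-v2 value of 13.1 CPM was the intra ventricular library.

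Per kilobase of exon, which lets genes be compared, MAML1 stood at 10.2 ± 3.99, MAML2 at 6.72 ± 5.02 and MAML3 at 2.03 ± 1.30 CPM per kb (SD, n = 10 each). MAML2 made up 17.3, 19.6 and 22.9% of the summed MAML level per kb in NLS-2SA-YAP1 replicates 1 to 3, and 24.7 to 66.4% in YAP1-MAML2-v2 libraries. The ranges of this share did not overlap. The share holds the same MAML2 values as above, in which reads of the fusion and of the mouse gene cannot be told apart. MAML1 was the leading MAML gene in all 3 NLS-2SA-YAP1 libraries (70.4 to 75.8%) and in 5 of the 7 YAP1-MAML2-v2 libraries, while MAML2 led in YAP1-MAML2-v2 replicates 2 (66.4%) and 7 (57.1%). In replicate 2 MAML2 was at its highest, 128.0 CPM. In replicate 7 it was at the median of its construct, 45.2 CPM, while MAML1 was at its lowest, 13.1 CPM.

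**Figure D1:**
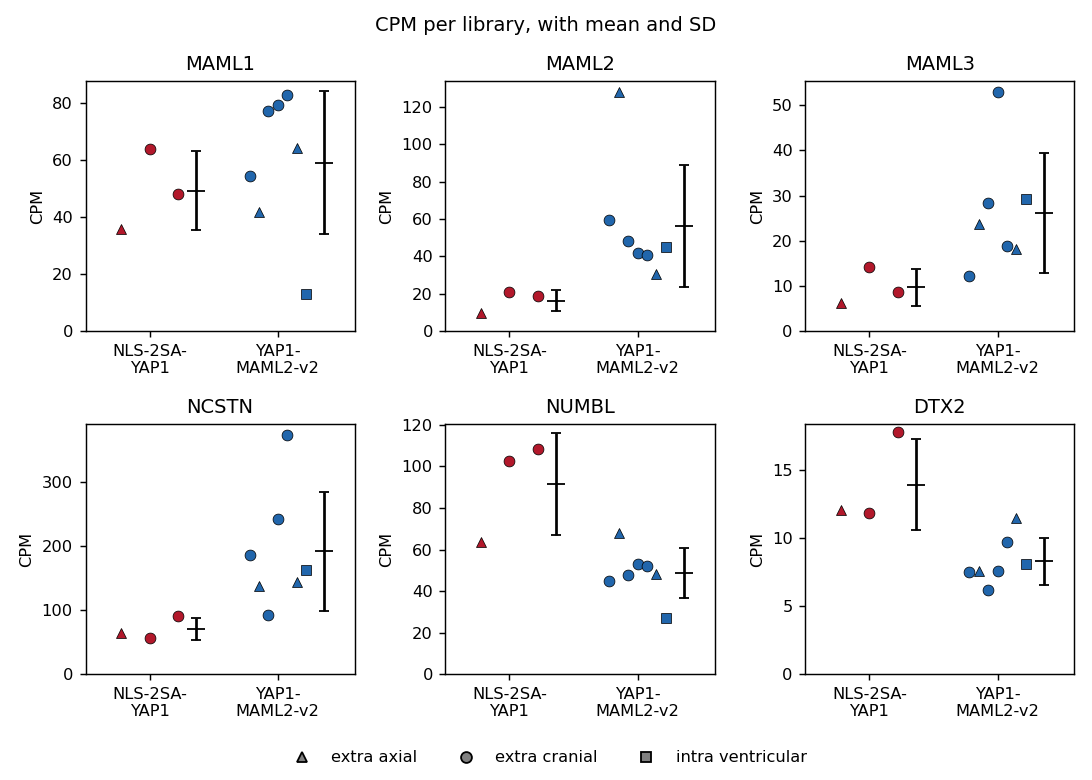
CPM of MAML1, MAML2, MAML3, NCSTN, NUMBL and DTX2 in each library (vertical axes, linear), NLS-2SA-YAP1 on the left and YAP1-MAML2-v2 on the right, with the region as marker shape and the mean and SD as bars. For MAML2 and NCSTN all 3 NLS-2SA-YAP1 points lie below all 7 YAP1-MAML2-v2 points, and DTX2 shows the opposite separation.

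The rest of the nuclear complex had folds of the same sign. RBPJ, the DNA-binding protein, had 142.0 ± 70.3 CPM in NLS-2SA-YAP1 and 181.8 ± 63.5 CPM in YAP1-MAML2-v2 tumors, and CREBBP had 180.2 ± 65.9 CPM in NLS-2SA-YAP1 and 207.3 ± 40.4 CPM in YAP1-MAML2-v2 tumors (SD, n = 3 and n = 7). EP300, the other acetyltransferase, had 88.0 ± 32.2 CPM in NLS-2SA-YAP1 and 150.6 ± 44.1 CPM in YAP1-MAML2-v2 tumors (a log2 fold change of -0.85, edgeR adjusted p = 0.391). SPEN, the corepressor, had 102.4 ± 58.4 CPM in NLS-2SA-YAP1 and 148.6 ± 39.2 CPM in YAP1-MAML2-v2 tumors. All 7 folds of the complex were negative, with a median of -0.68 against -0.03 over all genes. Of the 7, 2 had an unadjusted edgeR p under 0.05, against 13.1% of all genes. Over all genes 7075 of 13707 folds were negative. Without NLS-2SA-YAP1 replicate 1, 6 folds were negative and 1 was positive, the median was -0.40 and 0 of the 7 had an unadjusted p under 0.05. Among extra cranial libraries alone 6 were negative, the median was -0.41 and 1 of the 7 had such a p. That library was below every other library for MAML2, MAML3, RBPJ, CREBBP, EP300 and SPEN. It was the lowest of all 10 for 9 of the 35 members tested (25.7%), against 12.7% of all genes, the other members being NOTCH3, NOTCH4 and NRARP.

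NCSTN, or nicastrin, the gamma-secretase part that receives the cut receptor stub, was the second member whose groups did not overlap downward. It had 64.7, 57.3 and 91.0 CPM across NLS-2SA-YAP1 replicates 1 to 3, and 93.3, 162.6 and 374.1 CPM as lowest, median and highest in YAP1-MAML2-v2 tumors. The gap between the groups was narrow, from 91.0 to 93.3 CPM. The means were 71.0 ± 17.7 CPM for NLS-2SA-YAP1 (SD, n = 3) and 191.7 ± 92.6 CPM for YAP1-MAML2-v2 (SD, n = 7), with a log2 fold change of -1.43 (SE 0.42, edgeR adjusted p = 0.256; exact permutation p = 0.0167). DESeq2 called it (adjusted p = 0.0285), and the adjusted p ran from 0.0285 to 0.648 over 25 settings. With the skeletal muscle list as a covariate the fold was -0.95 (edgeR adjusted p = 0.588), and the part of muscle in this result was not tested further. Mouse Ncstn lies at chr1:172066013-172082795 on the minus strand of mm10.

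The other gamma-secretase genes did not share this pattern. PSEN2, a catalytic subunit, had 30.5 ± 2.56 CPM in NLS-2SA-YAP1 and 28.3 ± 10.2 CPM in YAP1-MAML2-v2 tumors, and the scaffold APH1A had 163.0 ± 36 CPM in NLS-2SA-YAP1 and 141.8 ± 51.1 CPM in YAP1-MAML2-v2 tumors. PSENEN, which activates the complex, had 11 ± 0.939 CPM in NLS-2SA-YAP1 and 7.94 ± 2.66 CPM in YAP1-MAML2-v2 tumors (SD, n = 3 and n = 7 throughout). All 3 folds were positive, with edgeR adjusted p-values of 0.973, 0.893 and 0.731. Per kilobase NCSTN stood at 17.9 ± 4.46 CPM per kb in NLS-2SA-YAP1 tumors beside 47.3 ± 10.4 for APH1A, and at 48.2 ± 23.3 CPM per kb in YAP1-MAML2-v2 tumors beside 41.1 ± 14.8 for APH1A.

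NUMBL, an endocytic adaptor that with NUMB holds Notch signaling down, was the 1 member with an unadjusted p under 0.05 and a positive fold. It had 63.4, 102.3 and 108.4 CPM across NLS-2SA-YAP1 replicates 1 to 3, and 27.1, 48.1 and 68.0 CPM as lowest, median and highest in YAP1-MAML2-v2 tumors. NLS-2SA-YAP1 replicate 1 lay below YAP1-MAML2-v2 replicate 2, and the other libraries were separated. The means were 91.4 ± 24.4 CPM for NLS-2SA-YAP1 (SD, n = 3) and 48.7 ± 12.2 CPM for YAP1-MAML2-v2 (SD, n = 7), with a log2 fold change of 0.79 (SE 0.29, edgeR adjusted p = 0.296; exact permutation p = 0.0333). With the skeletal muscle list as a covariate it was 0.60 (edgeR adjusted p = 0.613). NUMB itself had 96.2 ± 15.7 CPM in NLS-2SA-YAP1 and 114.3 ± 65.4 CPM in YAP1-MAML2-v2 tumors (a log2 fold change of -0.40, SE 0.44, edgeR adjusted p = 0.768).

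Deltex genes encode ubiquitin ligases that bind the receptor's intracellular domain. DTX2 had 12.1, 11.9 and 17.7 CPM across NLS-2SA-YAP1 replicates 1 to 3, above all YAP1-MAML2-v2 libraries, which ran from 6.15 to 11.5 CPM with a median of 7.58. It was picked out after its values were seen, as the 1 member with NLS-2SA-YAP1 wholly above, and its edgeR adjusted p was 0.483. DTX3 had 70.8 ± 30.0 CPM in NLS-2SA-YAP1 and 55.1 ± 12.2 CPM in YAP1-MAML2-v2 tumors, and DTX4 had 30.6 ± 7.76 CPM in NLS-2SA-YAP1 and 28.1 ± 24.3 CPM in YAP1-MAML2-v2 tumors, with overlapping groups. DTX1 had 0.0683 to 0.287 CPM in NLS-2SA-YAP1 tumors, and YAP1-MAML2-v2 tumors ran from 0.0262 to 3.20 CPM, with a deposited value of 1 in 2 libraries, and no fold is read from it.

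The share of members called between constructs was close to that of all genes. With edgeR 0 of 35 members tested had an adjusted p under 0.05, against 2 of 13707 genes (0.0146%). With an unadjusted p under 0.05 there were 4 of 35 members (11.4%: MAML2, NCSTN, MAML3 and NUMBL), against 13.1% of all genes. For the lower direction there were 3 (8.57%) against 7.61%. DESeq2 called 2 of 35 (5.71%) against 5% of all genes. NLS-2SA-YAP1 lay wholly below in 2 members (5.71%) against 3.03% of all genes, and wholly above in 1 (2.86%) against 3.71%. Each of these shares rests on 4 members or fewer. The median member fold was -0.23, with 16 positive and 19 negative. It was -0.0291 with limma-voom, and 0.0219 with limma on log2 CPM, with 18 positive and 17 negative. Without NLS-2SA-YAP1 replicate 1 the members under an unadjusted p of 0.05 numbered 2.

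**Figure D2:**
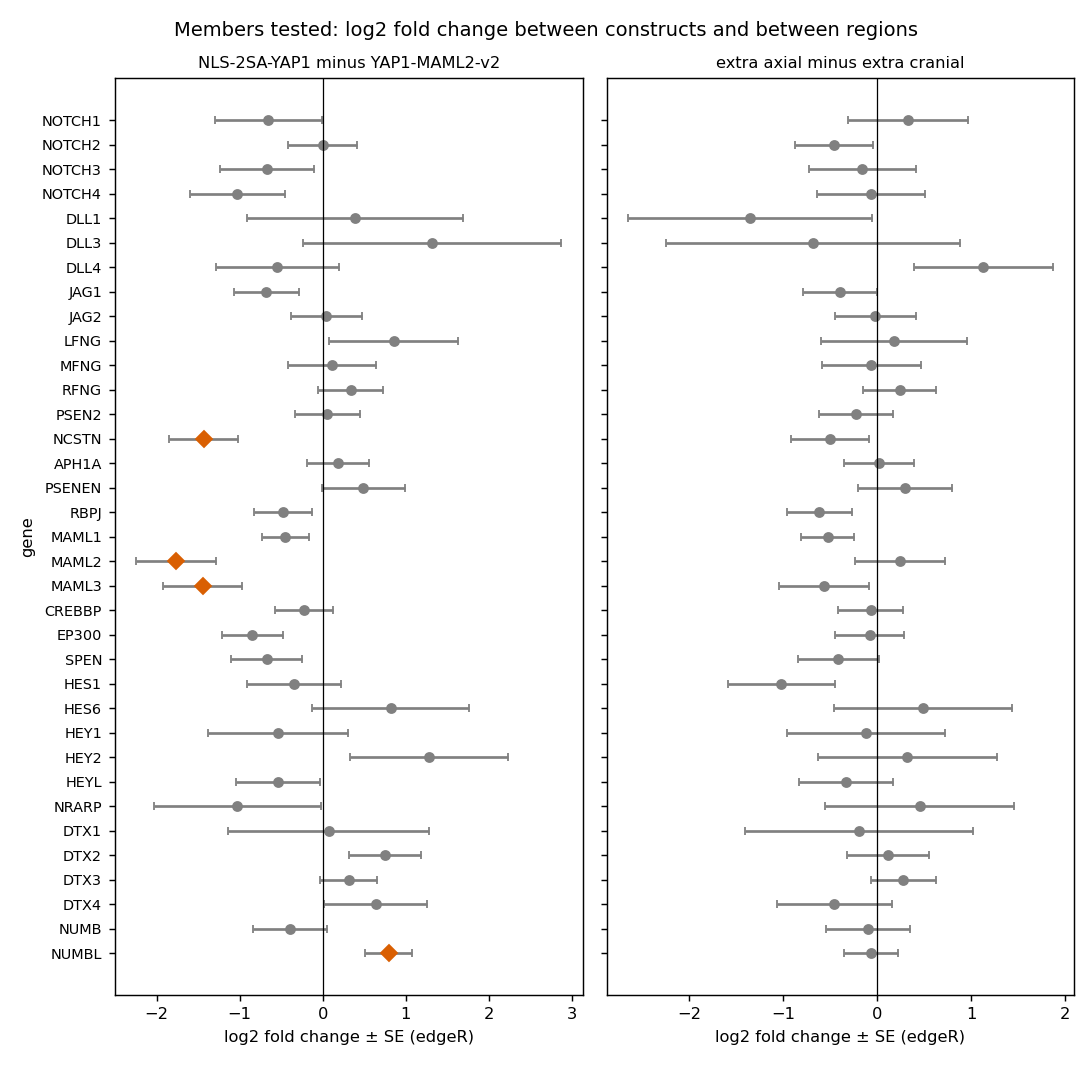
Log2 fold change (horizontal axes) with SE bars for the 35 members tested, ordered by role, between constructs (left panel, NLS-2SA-YAP1 over YAP1-MAML2-v2) and regions (right panel, extra axial over extra cranial), with orange diamonds for an unadjusted edgeR p under 0.05. The 4 diamonds are NCSTN, MAML2, MAML3 and NUMBL on the left, and there is none on the right.

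The receptors were dominated by NOTCH2 and NOTCH3. NOTCH2 had 195.9, 475.2 and 559.9 CPM across NLS-2SA-YAP1 replicates 1 to 3, and 192.0, 378.0 and 515.4 CPM as lowest, median and highest in YAP1-MAML2-v2 tumors. NOTCH3, the receptor typical of pericytes and vascular smooth muscle, had 41.7, 259.9 and 292.4 CPM across NLS-2SA-YAP1 replicates 1 to 3, and 59.5, 216.5 and 432.1 CPM as lowest, median and highest in YAP1-MAML2-v2 tumors. Both genes overlapped between constructs, and the low values of NOTCH3 were the extra axial NLS-2SA-YAP1 library and the intra ventricular YAP1-MAML2-v2 library. The pericyte and smooth muscle list (9 genes) summed to 1460 and 1071 CPM in those libraries, against 672.1 to 2579 CPM elsewhere. The list was highest in YAP1-MAML2-v2 replicate 2, where NOTCH3 was highest too. It was lowest in YAP1-MAML2-v2 replicate 5, where NOTCH3 had 412.0 CPM. In YAP1-MAML2-v2 replicate 4 the list summed to 2237 CPM and NOTCH3 had 205.2 CPM. NOTCH3 thus went with the list in some of these libraries and not in others. The part of pericytes and smooth muscle in NOTCH3 was not tested.

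NOTCH1 had 14.2, 47.9 and 11.6 CPM across NLS-2SA-YAP1 replicates 1 to 3, and 14.8, 34.7 and 81.0 CPM as lowest, median and highest in YAP1-MAML2-v2 tumors. NOTCH4, known from endothelium, had 7.52, 33.8 and 13.9 CPM across NLS-2SA-YAP1 replicates 1 to 3, and 8.67, 34.8 and 55.6 CPM as lowest, median and highest in YAP1-MAML2-v2 tumors. NOTCH4 went with the endothelial marker sum (12 genes) in some libraries and not in others. NOTCH4 was highest in YAP1-MAML2-v2 replicate 4, where that sum was lowest at 180.3 CPM. Its lowest YAP1-MAML2-v2 value was in the intra ventricular library, where the sum was highest at 1113 CPM. Across NLS-2SA-YAP1 replicates 1 to 3 the sum was 224.0, 612.4 and 304.1 CPM, in the same order as NOTCH4. The part of endothelium in NOTCH4 was not tested. The construct folds of NOTCH1, NOTCH3 and NOTCH4 were -0.65, -0.67 and -1.03, with edgeR adjusted p-values of 0.740, 0.705 and 0.513. Without NLS-2SA-YAP1 replicate 1 the NOTCH3 fold was 0.09, so its sign rests on that library.

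Per kilobase the order of mean receptor levels was NOTCH2 (36.5 ± 12.0), NOTCH3 (30.5 ± 16.4), NOTCH4 (3.55 ± 2.19) and NOTCH1 (2.48 ± 1.61 CPM per kb, SD, n = 10). Neighbours within each pair differed by less than their SD, while NOTCH3 exceeded NOTCH4 by more than the SD of either. NOTCH2 made up 60.6 ± 10.1% of the receptor sum in NLS-2SA-YAP1 and 49.1 ± 15.7% in YAP1-MAML2-v2 tumors. NOTCH3 made up 32.9 ± 10.8% of it in NLS-2SA-YAP1 and 41.4 ± 14.1% in YAP1-MAML2-v2 tumors. Their order was not the same in every library. NOTCH3 had the larger share in YAP1-MAML2-v2 replicates 2, 4, 5 and 6, with 57.3% against 29.9% in replicate 2. NOTCH2 had the larger share in YAP1-MAML2-v2 replicates 1, 3 and 7, with 76.6% against 16.1% in replicate 7. NOTCH2 also had the larger share in NLS-2SA-YAP1 replicates 1 to 3.

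**Figure D3:**
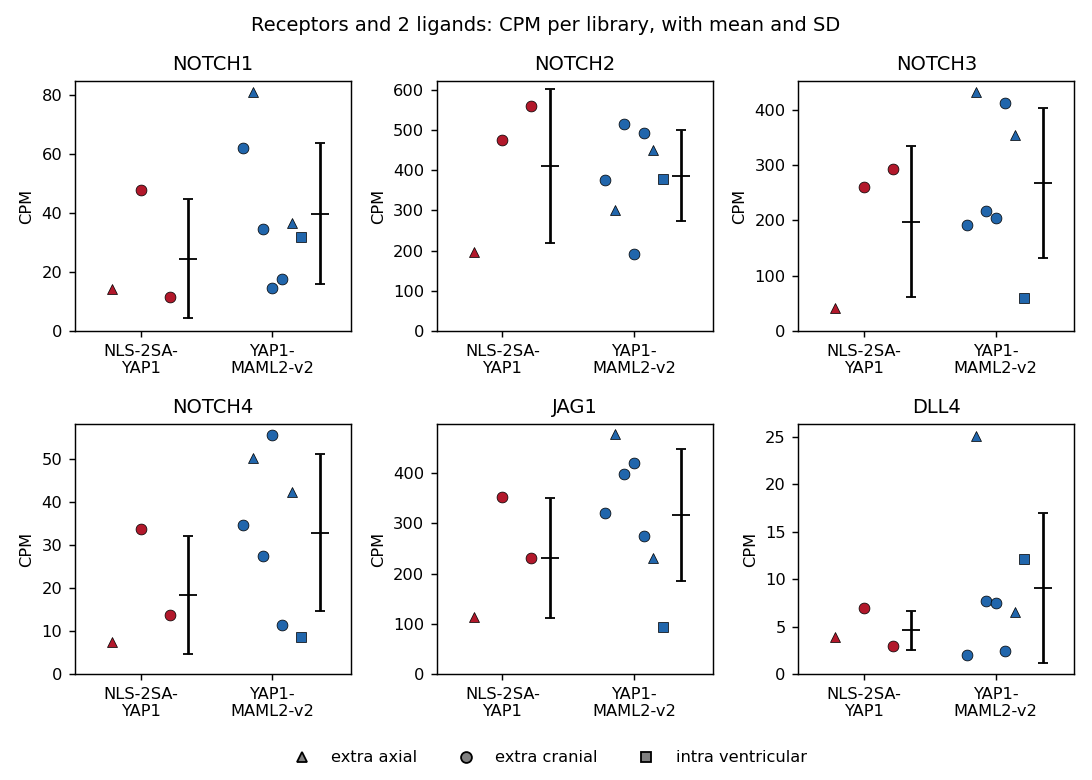
CPM of NOTCH1 to NOTCH4, JAG1 and DLL4 in each library (vertical axes, linear), NLS-2SA-YAP1 left and YAP1-MAML2-v2 right, with the region as marker shape and the mean and SD as bars. The constructs overlap in every panel, and NOTCH3 is lowest in the extra axial NLS-2SA-YAP1 and the intra ventricular YAP1-MAML2-v2 libraries.

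Among ligands JAG1 was by far the highest, at 49.9 ± 21.8 CPM per kb (SD, n = 10). It had 113.1, 350.9 and 230.8 CPM across NLS-2SA-YAP1 replicates 1 to 3, and 94.1, 320.3 and 476.9 CPM as lowest, median and highest in YAP1-MAML2-v2 tumors. JAG1 made up 86.2 ± 7.52% of the ligand sum per kb in NLS-2SA-YAP1 and 84.9 ± 16.1% in YAP1-MAML2-v2 tumors, with 49.8% in the intra ventricular library. The groups overlapped (a log2 fold change of -0.68, SE 0.39, edgeR adjusted p = 0.510).

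JAG2 had 11.3 ± 3.35 CPM in NLS-2SA-YAP1 and 14.9 ± 10.9 CPM in YAP1-MAML2-v2 tumors. DLL4, a ligand of sprouting endothelium, had 4.63 ± 2.06 CPM in NLS-2SA-YAP1 and 9.07 ± 7.86 CPM in YAP1-MAML2-v2 tumors, with its highest value of 25.1 CPM in YAP1-MAML2-v2 replicate 2, where the endothelial sum was 370.4 CPM. DLL1 had 4.50 to 12.0 CPM in NLS-2SA-YAP1 tumors and ran from 0.142 to 37.7 CPM over YAP1-MAML2-v2 tumors, among which it was the most variable member. DLL3, which acts within the cell and not as an activating ligand, had 0.342 to 1.84 CPM in NLS-2SA-YAP1 tumors and reached 6.70 CPM in the intra ventricular library, with 0 or 1 deposited in 3 YAP1-MAML2-v2 libraries. None of these ligands separated the constructs.

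The fringes are glycosyltransferases that set which ligand a receptor answers to. LFNG had 11.8, 11.8 and 15.9 CPM across NLS-2SA-YAP1 replicates 1 to 3, and ran from 0.567 to 14.3 CPM over YAP1-MAML2-v2 tumors. MFNG had 7.70 ± 0.974 CPM in NLS-2SA-YAP1 and 9.01 ± 5.70 CPM in YAP1-MAML2-v2 tumors (SD, n = 3 and n = 7). RFNG had 36.3 ± 22.1 CPM in NLS-2SA-YAP1 and 28.9 ± 6.38 CPM in YAP1-MAML2-v2 tumors. None had an unadjusted p under 0.05 between constructs.

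HES1, the Notch target found in most tissues, had 59.7 ± 49.3 CPM per kb of exon (SD, n = 10), a mean raised by YAP1-MAML2-v2 replicate 1 at 186.9 CPM per kb. Without that library it was 45.6 ± 22 CPM per kb, and JAG1 had 49.3 ± 23.0 CPM per kb (SD, n = 9). HES1 and JAG1 were each the highest member per kilobase in 3 of the 10 libraries. It had 69.2, 126.6 and 140.0 CPM across NLS-2SA-YAP1 replicates 1 to 3, and 18.8, 105.9 and 380.8 CPM as lowest, median and highest in YAP1-MAML2-v2 tumors. The YAP1-MAML2-v2 libraries thus spanned the NLS-2SA-YAP1 ones on both sides (a log2 fold change of -0.34, SE 0.57, edgeR adjusted p = 0.863). HEY1 stayed within 10.8 to 13.6 CPM in NLS-2SA-YAP1 tumors and ran from 1.22 to 82.8 CPM in YAP1-MAML2-v2 tumors.

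HEY2, with 2 RBPJ cores in its promoter, had 19.2, 3.45 and 2.76 CPM across NLS-2SA-YAP1 replicates 1 to 3, and 0.766, 1.76 and 20.4 CPM as lowest, median and highest in YAP1-MAML2-v2 tumors. Its 2 high values were the extra axial NLS-2SA-YAP1 and the intra ventricular YAP1-MAML2-v2 libraries. HEYL had 9.18 ± 5.47 CPM in NLS-2SA-YAP1 and 10.9 ± 5.17 CPM in YAP1-MAML2-v2 tumors, and was lowest in the same pair of libraries, at 3.90 and 0.521 CPM. HEY2 and HEYL thus stood at opposite ends in those tumors.

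HES5, the neural HES gene whose promoter also holds 2 cores, did not pass the filter on low values. It reached at most 0.192 CPM in NLS-2SA-YAP1 and 0.521 CPM in YAP1-MAML2-v2 tumors, with 0 or 1 deposited in 5 of 10 libraries. HES6, a relative that counters HES1, had 7.68 ± 5.88 CPM in NLS-2SA-YAP1 and 4.27 ± 2.73 CPM in YAP1-MAML2-v2 tumors. NRARP, a target that feeds back on the complex, had 1.02 ± 0.642 CPM in NLS-2SA-YAP1 and 2.19 ± 2.06 CPM in YAP1-MAML2-v2 tumors. Of the 6 HES, HEY and NRARP genes tested, 2 had positive and 4 negative construct folds, with edgeR adjusted p-values of 0.677 and above.

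**Figure D4:**
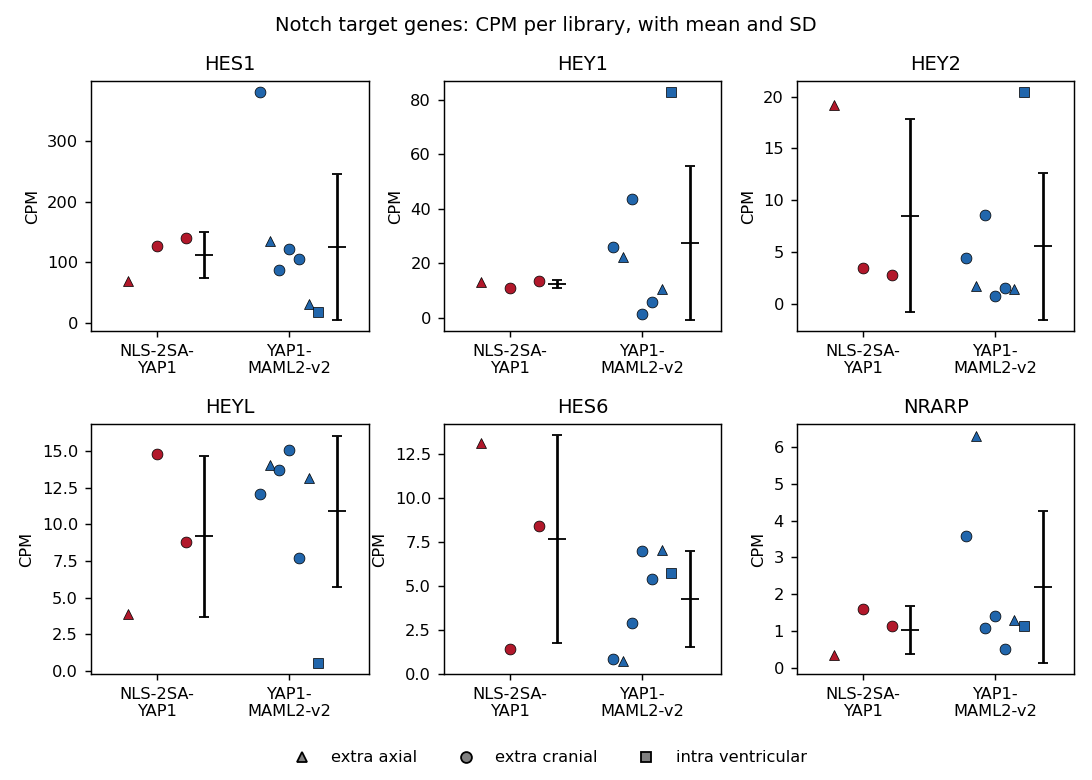
CPM of HES1, HEY1, HEY2, HEYL, HES6 and NRARP in each library (vertical axes, linear), NLS-2SA-YAP1 left and YAP1-MAML2-v2 right, with the region as marker shape and the mean and SD as bars. The constructs overlap in every panel; HEY1 and HEY2 are highest, and HES1 and HEYL lowest, among YAP1-MAML2-v2 libraries in the intra ventricular one.

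The members varied about as much among YAP1-MAML2-v2 tumors as other genes. The median SD of log2 CPM over these 7 libraries was 0.846 for the 35 members tested, from 0.289 (DTX2) to 2.72 (DLL1), against 0.812 over all genes, whose middle 90% ran from 0.315 to 2.82. CREBBP (0.306), RFNG (0.319), DTX3 (0.372) and SPEN (0.383) were the steadiest after DTX2. DLL3 (2.67), HEY1 (2.01) and DTX1 (1.89) followed DLL1 at the other end.

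**Figure D5:**
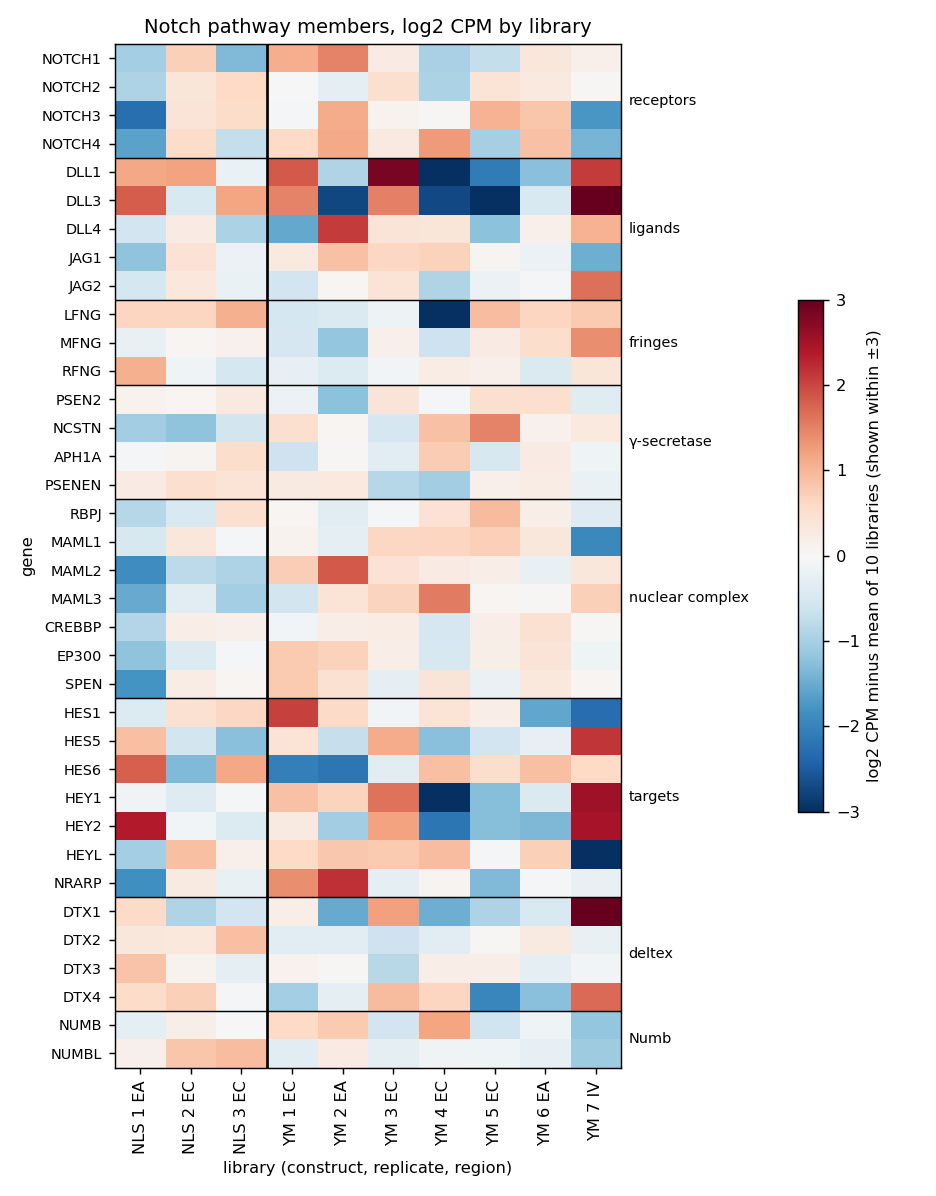
Log2 CPM of each of the 36 members in each library, less the member's mean over the 10 libraries (colour, log2 units), with NLS-2SA-YAP1 libraries left of YAP1-MAML2-v2 ones and members grouped by role. The extra axial NLS-2SA-YAP1 library is low across the nuclear complex, and the intra ventricular library is high for HEY1, HEY2 and DTX4 and low for HES1, HEYL and MAML1.

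The intra ventricular tumor differed from the other 6 YAP1-MAML2-v2 tumors at both ends. It was above all of them for DLL3, JAG2, MFNG, RFNG, HEY1, HEY2, DTX1 and DTX4, which is 8 of 35 members (22.9%) against 24% of all genes. It was below all of them for NOTCH3, NOTCH4, JAG1, RBPJ, MAML1, HES1, HEYL, NUMB and NUMBL, which is 9 of 35 (25.7%) against 22.6% of all genes. As a single library it has no replicate, and its members stood apart about as often as the rest of the table. The astrocyte and macrophage sums given above were highest in it, and their part in these levels was not tested.

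Extra axial and extra cranial tumors did not separate any member. With edgeR 0 of 35 members had an adjusted p under 0.05, against 0% of all genes, 0 had an unadjusted p under 0.05, against 3.01%, and 0 had non-overlapping regions, against 0.89%. DESeq2 also called 0 members and gave 0 an unadjusted p under 0.05. With limma-voom 0 members were called and 1 had an unadjusted p under 0.05. That member was HES1 (a log2 fold change of -1.61, limma-voom unadjusted p = 0.0307). The 3 members of smallest p were MAML1, HES1 and RBPJ. MAML1 had 36, 41.7 and 64.4 CPM in extra axial tumors (NLS-2SA-YAP1 replicate 1, then YAP1-MAML2-v2 replicates 2 and 6), and 48.1, 70.5 and 83.0 CPM as lowest, median and highest in extra cranial ones (a log2 fold change of -0.53, SE 0.28, edgeR adjusted p = 1). HES1 had 69.2, 135.3 and 31.2 CPM in the same extra axial tumors, and 86.8, 124.1 and 380.8 CPM in extra cranial ones (a log2 fold change of -1.02, SE 0.57, edgeR adjusted p = 1). RBPJ had 88.2, 126.2 and 179.7 CPM in extra axial tumors, and 116.2, 190.1 and 306.9 CPM in extra cranial ones (a log2 fold change of -0.62, SE 0.35, edgeR adjusted p = 1). In each the regions overlapped. Without YAP1-MAML2-v2 replicate 2 the members with an unadjusted p under 0.05 numbered 3 in place of 0, among them HES1 (-1.69) and MAML2 (-0.82), each with an edgeR adjusted p of 1. With all libraries the MAML2 region fold had the other sign, 0.24, and it was -0.24 with limma-voom.

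Whether the construct difference itself varied by region was tested as an interaction on the 9 libraries outside the ventricle (13487 genes). It rests on the lone extra axial NLS-2SA-YAP1 library. With edgeR 0 of 34 members were called, against 0.00741% of all genes, and 3 of 34 (8.82%) had an unadjusted p under 0.05, against 7.14%. NOTCH3 had 41.7 CPM in the extra axial NLS-2SA-YAP1 tumor against 432.1 and 353.3 CPM in extra axial YAP1-MAML2-v2 tumors. In the extra cranial region it had 259.9 and 292.4 CPM in NLS-2SA-YAP1 tumors, against 191.7 to 412.0 CPM in YAP1-MAML2-v2 tumors. The log2 interaction was -3.33 (SE 0.72, edgeR adjusted p = 0.658; DESeq2 adjusted p = 0.00517). SPEN had 35.5 CPM in the extra axial NLS-2SA-YAP1 tumor against 171.2 and 154.3 CPM in extra axial YAP1-MAML2-v2 tumors, and 143.6 and 128.2 CPM in extra cranial NLS-2SA-YAP1 tumors against 101.1 to 213.8 CPM in extra cranial YAP1-MAML2-v2 tumors (-2.08, SE 0.67, edgeR adjusted p = 0.658). RFNG went the other way, with 61.5 CPM in the extra axial NLS-2SA-YAP1 tumor against 22.1 and 21.9 CPM in extra axial YAP1-MAML2-v2 tumors. Extra cranial NLS-2SA-YAP1 tumors had 26.7 and 20.6 CPM of it, against 24.6 to 34.6 CPM in extra cranial YAP1-MAML2-v2 tumors (1.83, SE 0.59, edgeR adjusted p = 0.658).

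Of 31 further Notch pathway genes in the files, 28 were tested, and edgeR called 0 in any of these comparisons, while DESeq2 called 2 between constructs and 0 in the others. Of all genes DESeq2 called 5% between constructs. Between constructs 10 of these folds were positive and 18 negative, with a median of -0.10. With edgeR 2 of the 28 had an unadjusted p under 0.05, against 13.1% of all genes, so the list did not stand out. HDAC2, a histone deacetylase found in corepressor complexes, had 36.6 ± 2.44 CPM in NLS-2SA-YAP1 and 107.7 ± 68.2 CPM in YAP1-MAML2-v2 tumors (a log2 fold change of -1.66, SE 0.41, edgeR adjusted p = 0.224; DESeq2 adjusted p = 0.00774). NEURL1B, a ubiquitin ligase for Notch ligands, had 21.9 ± 7.29 CPM in NLS-2SA-YAP1 and 6.94 ± 4.09 CPM in YAP1-MAML2-v2 tumors (a log2 fold change of 1.69, SE 0.50, edgeR adjusted p = 0.241; DESeq2 adjusted p = 0.0302). Between regions 0 had an unadjusted p under 0.05 with edgeR or DESeq2. In the interaction, which rests on the lone extra axial NLS-2SA-YAP1 library, the 4 of smallest edgeR p were DNER, KAT2A, NEURL1B and CTBP2. Their log2 interactions were 7.45, 1.46, -2.07 and -1.97.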

How the data were processed

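RNA was measured in 10 tumors, with TruSeq stranded mRNA libraries per the labels' protocols. The genome was mm10 and HTSeq was used, per the submitters' processing notes. The deposited values are whole numbers under human-style symbols and were treated as estimated counts as deposited. The reason is that values of 1 are 4.54 to 6.82 times as frequent as values of 2 in each library, as an unrecorded adjustment would leave them. Depth is therefore not known, and no counting interval is given. Some 1662 genes reach above 100 in one library while another holds 0 or 1. The sources used here do not give the aligner, the annotation, the strand setting or the treatment of reads shared by similar genes.

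Genes were kept with filterByExpr by construct at a minimum count of 10 (13707 genes, 35 of 36 members), scaled by TMM and tested with edgeR 4.0.16 (quasi-likelihood, robust; R 4.3.3) on all 10 libraries, with terms for construct and for region. The region term fits the intra ventricular library exactly. P-values were adjusted by Benjamini-Hochberg over all genes tested, at 0.05. SEs come from the fitted weights and the posterior quasi-dispersion. Log2 CPM used a prior count of 2. Exact permutation tests compared mean log2 CPM over all regroupings of 7 against 3 libraries. They were run only for MAML2, YAP1 and the members with an unadjusted edgeR p under 0.05 between constructs. Those members were picked from the same libraries, so these p-values are not separate support. DESeq2 1.42.0, limma 3.58.1, other scalings and filters, marker covariates and leaving out each library were alternatives. Only the construct fits were tried on simulated counts with known fold changes. Those counts lack the excess of values of 1 seen here, so they do not test the fits on values of this kind. Exon lengths are exon unions of GENCODE M21. The members and lists were chosen with earlier results of these data known. Folds were named for MAML2, for members with an unadjusted p under 0.05 and otherwise for the 3 of smallest p. Further folds are given beside these as values.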

Additional observations from a re-analysis of the deposited data

Results flagged for a closer look

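Among the 7 YAP1-MAML2-v2 libraries, 4 members had 1 library far below the others on log2 CPM, by Dixon's ratio of the gap to the range (critical value 0.568). HEYL was 0.521 CPM in replicate 7, the intra ventricular tumor, against 7.68 CPM or more in the other 6, with a ratio of 0.795. MAML1 was 13.1 CPM in replicate 7, against 41.7 CPM or more, with a ratio of 0.627. NOTCH3 was 59.5 CPM in replicate 7, against 191.7 CPM or more, with a ratio of 0.590. LFNG was 0.567 CPM in replicate 4, an extra cranial tumor, against 5.24 CPM or more, with a ratio of 0.683. Over all 13707 genes tested the same ratio passed in 6.83% in either direction and in 3.94% with 1 library lowest, against 4 of 35 members (11.4%), all with 1 library lowest. Replicate 7 was the lowest such library in 1.66% of all genes and in 3 members (8.57%). It lay below every other YAP1-MAML2-v2 library in 22.6% of all genes. Chance flags about 1 in 20 groups.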

How the results depend on the processing

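Each fold kept its sign over the settings run in the comparison that named its gene. In other comparisons signs turned: without NLS-2SA-YAP1 replicate 1 the construct folds of NOTCH3 and RFNG were 0.09 in place of -0.67 and -0.35 in place of 0.34, and without YAP1-MAML2-v2 replicate 2 that of HES1 was 0.05 in place of -0.34. The count of called genes between constructs, 2 with edgeR, was 685 with DESeq2, 92 with limma-voom, 4 with limma on log2 CPM (also with a prior count of 0.5), 4 without a low-value filter and 4 among extra cranial libraries. It was 1 without genes at both 0 or 1 and over 100, and 0 with the endothelium or the skeletal muscle list as covariate. Leaving out a library gave 0 to 2. Members called between constructs numbered 2 with DESeq2, as did the further pathway genes, and 0 without any 1 library. The median member fold of -0.23 was -0.0291 with limma-voom and 0.0219 with limma on log2 CPM at either prior count, and ran from -0.34 to -0.05 leaving out a library. Between regions DESeq2 called 31 genes in place of 0, leaving out a library gave 0 to 1, and the member median of -0.08 ran from -0.351 to 0.0213. Library totals without scaling moved the median region fold of all genes to 0.14 in place of -0.01 and turned the split of members to 19 positive and 16 negative in place of 12 and 23. The interaction called 1 gene with edgeR, 204 with DESeq2 and 4 with limma, and 0 to 3 leaving out a library. DESeq2 called 1 member there, NOTCH3, and the member median of -0.58 ran from -0.71 to -0.37. Without NLS-2SA-YAP1 replicate 1 the interaction could not be fitted. Replicate numbers did not pair the samples (r of same-numbered deviations 0.17, 0.34 and -0.07). With a replicate block 2 genes and 0 members were called, 6 members had an unadjusted p under 0.05, and the MAML2 fold was -2.20 (edgeR adjusted p = 0.243). Values of 0 or 1 limit DLL3, DTX1 and HES5, and the lone extra axial NLS-2SA-YAP1 library limits every region result.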
